A study of Mus musculus with 28 samples.

Results

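The collagen genes were taken as every probe set whose platform annotation gives a single gene symbol made of Col, a number, the letter a and a chain number. The rule found 39 probe sets of 17831 on the array, 1 for each of 39 genes, and used no measured value. The arrays measured RNA in skeletal muscle of mice injected with the inflammatory cytokine interleukin 1b (IL-1b) by the intracerebroventricular route, into the fluid-filled cavities of the brain, or injected with vehicle. Animals were killed after 2, 4 or 8 h, and each of the 6 groups has 5 arrays except IL-1b at 8 h, which has 3. Every group was injected. The labels name no strain, sex or age, nor which muscle was used, nor whether arrays stand for separate animals, so the p-values rest on a spread that may be technical. The deposited values are log2 values centred on the median of each probe set over the 28 arrays. A value of 0 is therefore the middle of that gene's own arrays, differences between groups can be read, and the level of one collagen cannot be set against that of another. For the same reason the labelled tissue could not be checked against the level of its markers.

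Collagens are secreted proteins whose chains wind around each other into a rope-like helix. Fibril-forming collagens such as types I and III carry the tensile load of tendon and of the connective tissue around muscle fibres, type IV forms the sheet of the basement membrane, and type VI forms beaded microfilaments that tie the basement membrane to the matrix outside it. FACIT collagens (fibril-associated collagens with interrupted helices) sit on the surface of fibrils, multiplexins carry sugar chains in basement membrane zones, and other classes form networks, anchoring fibrils or membrane proteins. In muscle, most interstitial collagen is made by fibroblast-like cells between the fibres. The 39 genes comprised 11 fibril-forming collagens, 6 type IV, 4 type VI, 7 FACIT, 3 network, 4 transmembrane and 2 multiplexin genes, together with the anchoring fibril gene Col7a1 and Col26a1.

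The promoters of 5 genes on which the results below turn are shown first. Col1a2 and Col3a1 encode fibril chains with wide swings between arrays, Col15a1 is the 1 collagen that passed the test, and Col4a1 and Col4a2 are type IV chains that lie head to head. Each window runs from 250 bases before to 50 bases after the RefSeq start in GRCm38.p6, on the gene's own strand. The windows are chr6:4505368-4505667 on the plus strand for Col1a2, chr1:45311288-45311587 on the plus strand for Col3a1, chr4:47207762-47208061 on the plus strand for Col15a1, chr8:11312777-11313076 on the minus strand for Col4a1 and chr8:11312555-11312854 on the plus strand for Col4a2. Capitals mark CCAAT or its reverse complement ATTGG, and TATAAA or its reverse complement TTTATA.
Col1a2: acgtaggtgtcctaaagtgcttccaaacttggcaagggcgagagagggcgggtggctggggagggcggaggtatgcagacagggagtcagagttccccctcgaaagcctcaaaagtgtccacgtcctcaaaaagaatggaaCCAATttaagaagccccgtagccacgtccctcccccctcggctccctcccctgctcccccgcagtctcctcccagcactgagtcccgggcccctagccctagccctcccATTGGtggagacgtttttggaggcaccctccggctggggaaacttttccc
Col3a1: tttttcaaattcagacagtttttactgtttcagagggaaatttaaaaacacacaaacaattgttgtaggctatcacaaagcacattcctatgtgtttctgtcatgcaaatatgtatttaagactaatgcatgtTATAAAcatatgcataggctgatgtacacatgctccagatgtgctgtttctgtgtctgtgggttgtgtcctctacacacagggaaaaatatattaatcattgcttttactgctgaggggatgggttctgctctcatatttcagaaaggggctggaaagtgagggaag
Col15a1: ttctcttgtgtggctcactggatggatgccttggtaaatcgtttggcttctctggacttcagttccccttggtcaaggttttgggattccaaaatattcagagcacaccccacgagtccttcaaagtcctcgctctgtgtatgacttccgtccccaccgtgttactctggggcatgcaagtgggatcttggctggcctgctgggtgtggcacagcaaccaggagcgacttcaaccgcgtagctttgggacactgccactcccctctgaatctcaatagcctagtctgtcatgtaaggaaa
Col4a1: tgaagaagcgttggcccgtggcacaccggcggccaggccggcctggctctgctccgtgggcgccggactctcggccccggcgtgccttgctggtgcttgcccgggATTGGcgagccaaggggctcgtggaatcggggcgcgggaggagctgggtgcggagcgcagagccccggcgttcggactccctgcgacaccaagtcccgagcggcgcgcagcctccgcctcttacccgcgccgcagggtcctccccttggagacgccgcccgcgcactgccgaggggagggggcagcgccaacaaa
Col4a2: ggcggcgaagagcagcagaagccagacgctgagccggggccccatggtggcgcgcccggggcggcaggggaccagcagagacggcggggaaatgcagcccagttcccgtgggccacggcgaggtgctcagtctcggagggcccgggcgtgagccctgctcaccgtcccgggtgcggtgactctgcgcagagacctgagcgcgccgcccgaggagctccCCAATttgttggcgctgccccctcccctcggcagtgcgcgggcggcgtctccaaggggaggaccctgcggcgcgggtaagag

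The Col4a1 and Col4a2 windows share 78 bases, and their starts lie 21 bases apart on opposite strands. Col1a2 holds CCAAT 109 bases before its start and ATTGG at the start itself, Col3a1 holds TATAAA 117 bases before its start, and the Col15a1 window holds neither motif. RefSeq promoter windows were matched for 31 of the 39 genes, 34 windows in all. CCAAT on either strand was in 35.3% of these windows and in 37.4% of all 32851 windows, and TATAAA was in 14.7% against 13.6%. The GC box letters GGGCGG were in 61.8% against 35.7%, and TGTTCT, a core of glucocorticoid receptor motifs, was in 5.88% (the windows of Col9a1 and Col20a1) against 19%, both strands counted for each. None of the 4 motifs contains another, and a match describes the sequence only.

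Collagen values swung widely between arrays of the same group. The count of collagens above their own median ran from 15 to 39 of 39 on vehicle 2 h arrays and from 2 to 32 on IL-1b 2 h arrays. It ran from 1 to 33 in vehicle and from 2 to 35 after IL-1b at 4 h, and from 11 to 38 in vehicle and from 2 to 32 after IL-1b at 8 h. Vehicle 2 h replicate 7, vehicle 8 h replicate 1 and IL-1b 8 h replicate 22 had the widest spread over all probe sets (SD 0.298, 0.317 and 0.33, against at most 0.223 on the other arrays), and 39, 38 and 32 collagens lay above 0 on them. IL-1b 2 h replicate 2 had 32 collagens above 0, against 2 to 10 on the other 4 IL-1b arrays of that time. Without the 3 widest arrays, and without these and IL-1b 2 h replicate 2, 0 collagens passed the test at 2 h and 4 h and 2 passed at 8 h.

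**Figure D1:**
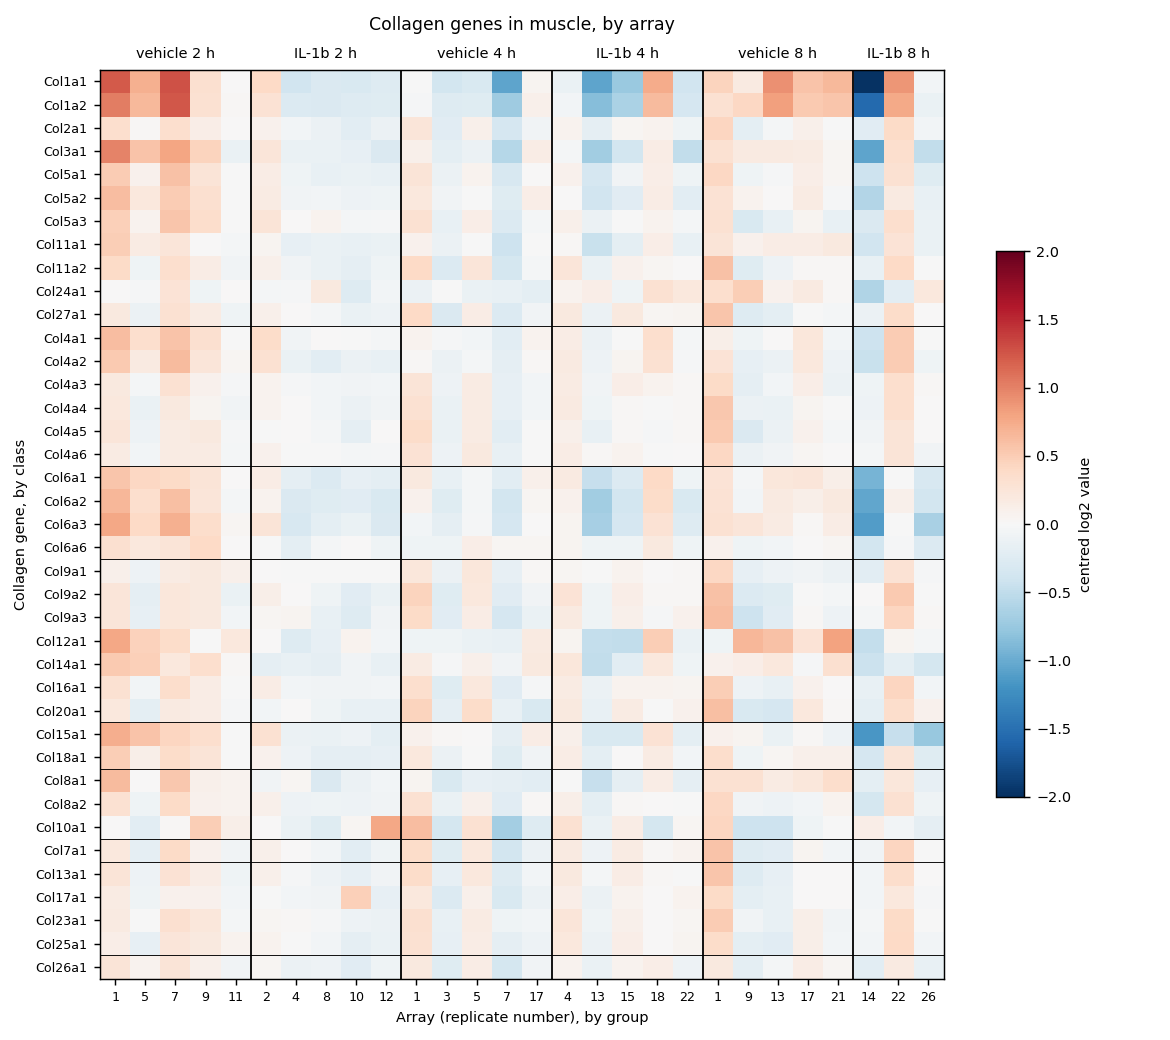
Centred log2 value of each of the 39 collagen genes (lines, grouped by class) on each of the 28 arrays (columns, grouped by treatment and time, labelled with the replicate number). Red is above and blue below the gene's own median; whole columns share a colour, such as vehicle 2 h replicates 1 and 7 with 39 of 39 genes above 0 and vehicle 4 h replicates 3 and 7 with 1 of 39.

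At 2 h every one of the 39 collagens had a fitted value lower after IL-1b than in vehicle, but none passed the test. The median difference was -0.22 on the log2 scale, against -0.02 over all probe sets, and the differences ran from -0.87 to just under 0. Throughout, differences were tested with limma over all probe sets with Benjamini-Hochberg adjustment and a threshold of 0.01, and errors are standard errors (SE). By that test 0 of 39 collagens were called, against 0.0729% of all probe sets. At an unadjusted p under 0.05, 19 collagens were lower, where 5.77% of all probe sets were, and 0 were higher, where 4.8% were. Fitted differences lay below 0 for 56.7% of all probe sets. Collagens vary together between arrays, so here and below such counts of genes are not counts of separate events. The mean of the 39 per array ran from -0.0066 to 0.418 in vehicle and from -0.117 to 0.104 after IL-1b, with overlap.

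The 3 largest differences at 2 h were those of the fibril-forming chains Col1a1, Col1a2 and Col3a1, of which Col1a1 and Col1a2 also varied most between arrays of a group. By class median, type VI (-0.51) and the multiplexins (-0.41) lay lower than the fibril-forming class (-0.28). Centred Col1a1, the main chain of type I collagen, was 1.22, 0.71, 1.27, 0.31 and 0.00 on vehicle replicates 1, 5, 7, 9 and 11, and 0.39, -0.39, -0.28, -0.31 and -0.25 on IL-1b replicates 2, 4, 8, 10 and 12. The groups overlapped through IL-1b replicate 2, which lay above vehicle replicates 9 and 11. The fitted difference of Col1a1 was -0.87 ± 0.37 (95% interval -1.63 to -0.11, n = 5 per group, limma adjusted p = 0.433). Col1a2, the partner chain, differed by -0.81 ± 0.30 (adjusted p = 0.353), and Col3a1, the type III chain of more elastic fibrils, by -0.63 ± 0.21 (adjusted p = 0.254). Col5a1 and Col5a2, type V chains that start fibrils, differed by -0.36 and -0.36 (adjusted p = 0.358 and 0.3). Of the 11 fibril-forming genes, 7 were lower at an unadjusted p under 0.05, against 5.77% of all probe sets, and 0 passed the adjusted test.

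Col14a1 and Col6a6 were the 2 collagens whose groups did not overlap at 2 h, a pattern seen in 1.31% of all probe sets. Centred Col14a1, a FACIT collagen of fibril surfaces, was 0.52, 0.48, 0.21, 0.34 and 0.02 on vehicle replicates 1, 5, 7, 9 and 11, and -0.18, -0.15, -0.18, -0.07 and -0.15 on IL-1b replicates 2, 4, 8, 10 and 12. All IL-1b values, including replicate 2, were below all vehicle values, and the difference was -0.46 ± 0.11 (n = 5 per group, limma adjusted p = 0.0685). Col6a6, a type VI chain, differed by -0.31 ± 0.07 (adjusted p = 0.0821), with the lowest vehicle value at 0.0054 and the highest IL-1b value at 0.0038.

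Type VI collagen, whose loss causes inherited muscle disease in people, had all 4 measured chains lower at an unadjusted p under 0.05. The share of all probe sets was 5.77%, and the median of the 4 was -0.51. Centred Col6a3 was 0.77, 0.40, 0.71, 0.36 and 0.05 on vehicle replicates 1, 5, 7, 9 and 11, and 0.26, -0.31, -0.19, -0.13 and -0.30 on IL-1b replicates 2, 4, 8, 10 and 12. IL-1b replicate 2 was the 1 array that entered the vehicle range, and the difference was -0.59 ± 0.17 (n = 5 per group, limma adjusted p = 0.18). Col6a1 and Col6a2 differed by -0.46 ± 0.15 and -0.56 ± 0.18 (adjusted p = 0.245 and 0.235). The multiplexins Col15a1 (-0.46 ± 0.13, adjusted p = 0.184) and Col18a1 (-0.36 ± 0.11, adjusted p = 0.22), of basement membrane zones, lay in the same range. Type IV collagens were split: Col4a1 and Col4a2, the chains of most basement membranes, differed by -0.32 ± 0.13 and -0.39 ± 0.14 (adjusted p = 0.413 and 0.316), and the median of the 6 type IV genes was -0.13.

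The vehicle arrays themselves moved over the same hours. All 39 fitted collagen values were lower in vehicle at 4 h than in vehicle at 2 h, where 54.8% of all probe sets were, with a median of -0.19. This comparison and the one at 2 h share the 5 vehicle 2 h arrays, so they are not independent. No collagen passed, against 0.101% of all probe sets, and 18 were lower at an unadjusted p under 0.05, against 6.28%. Centred Col1a1 was 0.00, -0.36, -0.30, -1.05 and 0.06 on vehicle 4 h replicates 1, 3, 5, 7 and 17, and vehicle at 4 h differed from vehicle at 2 h by -1.03 ± 0.37 (n = 5 per group, limma adjusted p = 0.299). Col1a2, Col3a1 and Col6a3 differed by -0.88 ± 0.30, -0.66 ± 0.21 and -0.57 ± 0.17 (adjusted p = 0.265, 0.197 and 0.17), and Col8a1, a short-chain collagen of vessel walls, by -0.44 ± 0.12 (adjusted p = 0.105). Col6a3 and Col4a2 were the 2 whose groups did not overlap, against 1.73% of all probe sets.

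Between 4 and 8 h the vehicle values of several collagens stood higher again. No collagen passed for vehicle at 8 h minus 4 h (0.129% of all probe sets passed), and 6 were higher at an unadjusted p under 0.05 (4.51%). In 6 genes, Col1a1, Col1a2, Col6a3, Col8a1, Col11a1 and Col24a1, all 8 h vehicle values lay above all 4 h vehicle values, a pattern of 1.22% of all probe sets. Col8a1 was 0.05, -0.30, -0.16, -0.18 and -0.21 on vehicle 4 h replicates 1, 3, 5, 7 and 17, and 0.30, 0.30, 0.16, 0.23 and 0.35 on vehicle 8 h replicates 1, 9, 13, 17 and 21. The Col8a1 difference was 0.43 ± 0.12 (n = 5 per group, limma adjusted p = 0.119), and those of Col1a1 and Col1a2 were 0.88 ± 0.37 and 0.75 ± 0.30 (adjusted p = 0.504 and 0.467). Col12a1, a FACIT collagen of tendon and fascia, differed by 0.50 ± 0.17 (adjusted p = 0.302). Col15a1 differed by -0.03 over these hours and by -0.42 ± 0.13 between vehicle at 8 h and at 2 h (adjusted p = 0.12). For vehicle at 8 h minus 2 h, 0 collagens passed (0.852% of all probe sets did), 36 were below 0 (51.4%), 5 were lower at an unadjusted p under 0.05 (5.62%), and the median was -0.10. The largest differences after Col15a1 were those of Col3a1 (-0.36), Col5a3 (-0.34) and Col4a1 (-0.33).

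At 4 h IL-1b and vehicle arrays differed little in collagens. The median difference was 0.02, 16 of 39 collagens were below 0 (48.7% of all probe sets were), and 0 passed, against 0.847%. The lowest differences were Col3a1 (-0.17 ± 0.21, limma adjusted p = 0.928) and Col14a1 (-0.14 ± 0.11, adjusted p = 0.836). Col24a1, a fibril-forming collagen best known from developing bone, was the 1 collagen at an unadjusted p under 0.05, higher by 0.25 ± 0.11 (adjusted p = 0.514), where 3.77% of all probe sets were higher and 5% were lower. Its centred values were -0.11, -0.01, -0.13, -0.15 and -0.20 on vehicle replicates 1, 3, 5, 7 and 17, and 0.07, 0.13, -0.09, 0.31 and 0.22 on IL-1b replicates 4, 13, 15, 18 and 22. IL-1b replicate 15 lay inside the vehicle range. Col1a1 ran from -1.06 to 0.74 on the 5 IL-1b arrays of this time, wider than the difference of any collagen.

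**Figure D2:**
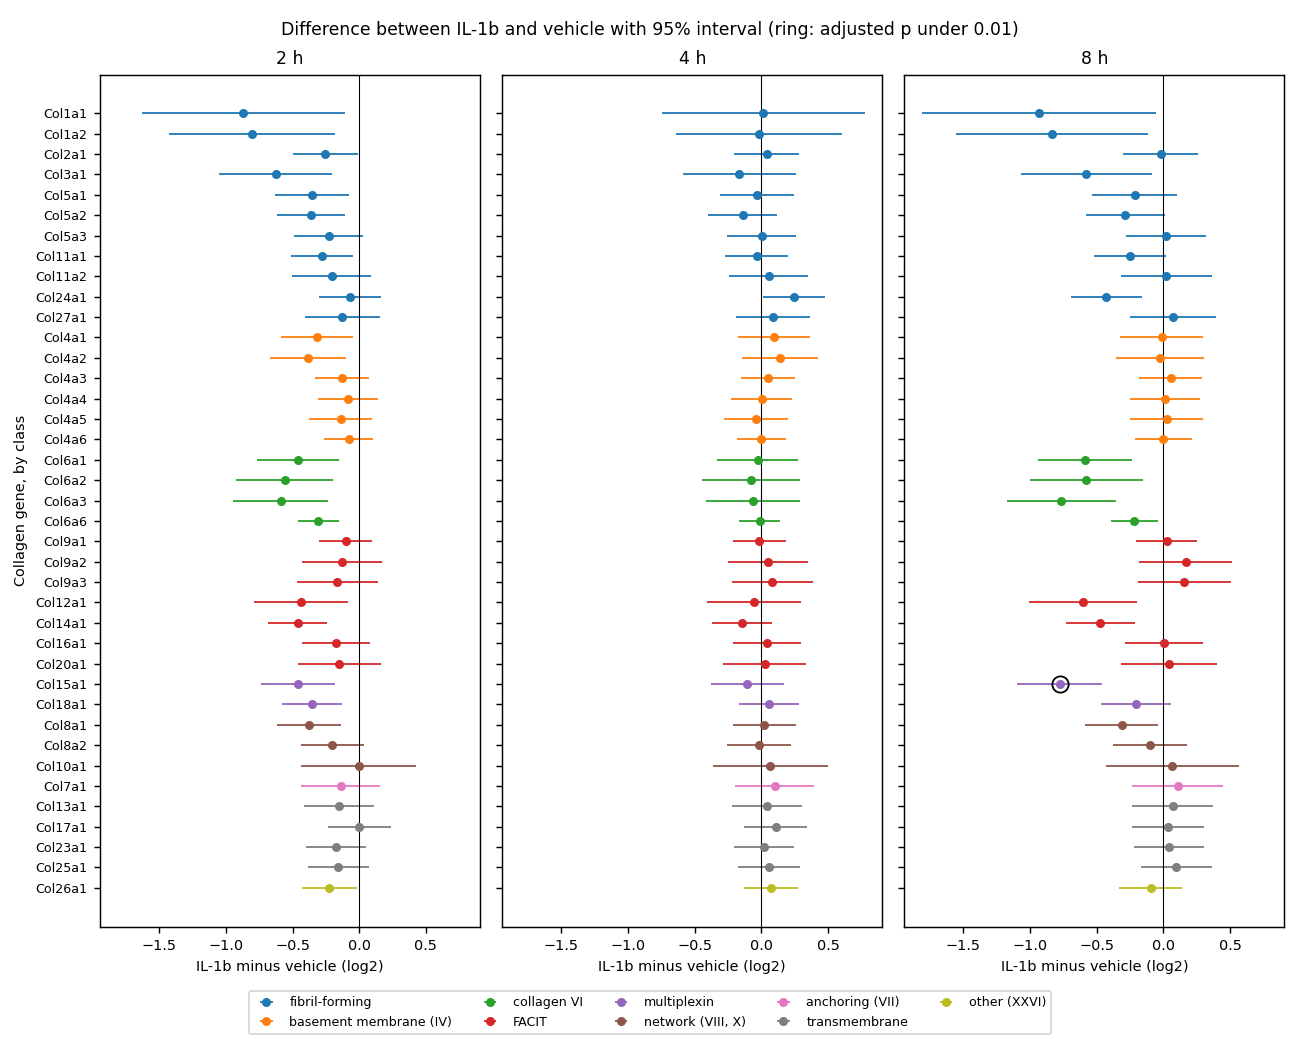
Fitted IL-1b minus vehicle difference (log2, horizontal axis) of each of the 39 collagen genes (vertical axis, coloured by class) at 2, 4 and 8 h, with the 95% interval of the model as a bar and a ring where the adjusted p was under 0.01. All 39 points lie below 0 at 2 h, 16 do at 4 h and 22 at 8 h, where Col15a1 carries the 1 ring.

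At 8 h Col15a1 fell after IL-1b and was the 1 collagen of 39 that passed, against 2.09% of all probe sets in either direction and 1.07% lower. Collagen XV is a multiplexin of the basement membrane zone of muscle fibres and capillaries, and mice without it develop a mild muscle disease. Its centred values were 0.09, 0.06, -0.13, 0.03 and -0.10 on vehicle replicates 1, 9, 13, 17 and 21, and -1.16, -0.46 and -0.75 on IL-1b replicates 14, 22 and 26. All 3 IL-1b arrays lay below all 5 vehicle arrays. The difference was -0.78 ± 0.16 (95% interval -1.10 to -0.46, n = 3 IL-1b and 5 vehicle arrays, limma adjusted p = 0.00242), a 1.72-fold lower value. It did not pass without IL-1b replicate 14 (-0.59, adjusted p = 0.0465) or replicate 26 (-0.798, adjusted p = 0.0116). It also did not pass when only the 8 h groups were fitted (adjusted p = 0.0462) or after a further quantile normalization (-0.60, adjusted p = 0.0596).

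Col6a3 and Col14a1 were the other two collagens without overlap at 8 h (3.93% of all probe sets were lower without overlap), and neither passed. Centred Col6a3 was 0.30, 0.24, 0.16, 0.02 and 0.15 on vehicle replicates 1, 9, 13, 17 and 21, and -1.11, -0.01 and -0.65 on IL-1b replicates 14, 22 and 26. The groups were separated by a narrow gap, between vehicle replicate 17 and IL-1b replicate 22, and the difference was -0.77 ± 0.20 (n = 3 and 5, limma adjusted p = 0.0241). Without IL-1b replicate 22 Col6a3 passed (-1.06, adjusted p = 0.00205). Centred Col14a1 was 0.08, 0.14, 0.21, -0.03 and 0.33 in vehicle and -0.43, -0.19 and -0.36 after IL-1b on the same replicates, a difference of -0.47 ± 0.13 (adjusted p = 0.0278). The other type VI chains Col6a1 and Col6a2 differed by -0.58 ± 0.17 and -0.58 ± 0.21 (adjusted p = 0.052 and 0.144), and Col12a1 by -0.60 ± 0.20 (adjusted p = 0.098).

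The fibril chains Col1a1, Col1a2 and Col3a1 varied widely between the 3 IL-1b arrays at 8 h. Centred Col1a1 was 0.45, 0.18, 0.92, 0.57 and 0.64 on vehicle replicates 1, 9, 13, 17 and 21, and -1.98, 0.89 and -0.05 on IL-1b replicates 14, 22 and 26. The lowest and nearly the highest value of these 8 arrays were thus both IL-1b arrays (SD 1.46 after IL-1b and 0.268 in vehicle). The difference of Col1a1 was -0.93 ± 0.43 (n = 3 and 5, limma adjusted p = 0.336) and moved to -0.13 without IL-1b replicate 14 and to -1.57 without replicate 22. Col1a2 and Col3a1 differed by -0.84 ± 0.35 and -0.58 ± 0.24 (adjusted p = 0.26 and 0.25), and Col24a1 by -0.43 ± 0.13 (adjusted p = 0.068). Col4a1 and Col4a2 differed by -0.01 ± 0.15 and -0.03 ± 0.16 (adjusted p = 0.993 and 0.986). The values of Col4a1 were -0.41, 0.51 and -0.01 on IL-1b replicates 14, 22 and 26.

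Over all 39 collagens at 8 h, 22 were below 0 (50.1% of all probe sets were), with a median of -0.02. At an unadjusted p under 0.05, 12 were lower (7.72%) and 0 higher (5.18%). By class, all 4 type VI genes were among the 12 (class median -0.58), with 4 of 11 fibril-forming genes (-0.25), 2 of 7 FACIT genes (0.03), 1 of 3 network genes (-0.10) and 1 of 2 multiplexins (-0.49), and 0 of 6 type IV genes (0.01). Classes were not tested against each other. The median of all collagens moved to -0.22 without IL-1b replicate 22 and was 0.05 at the other end when single arrays were left out.

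**Figure D3:**
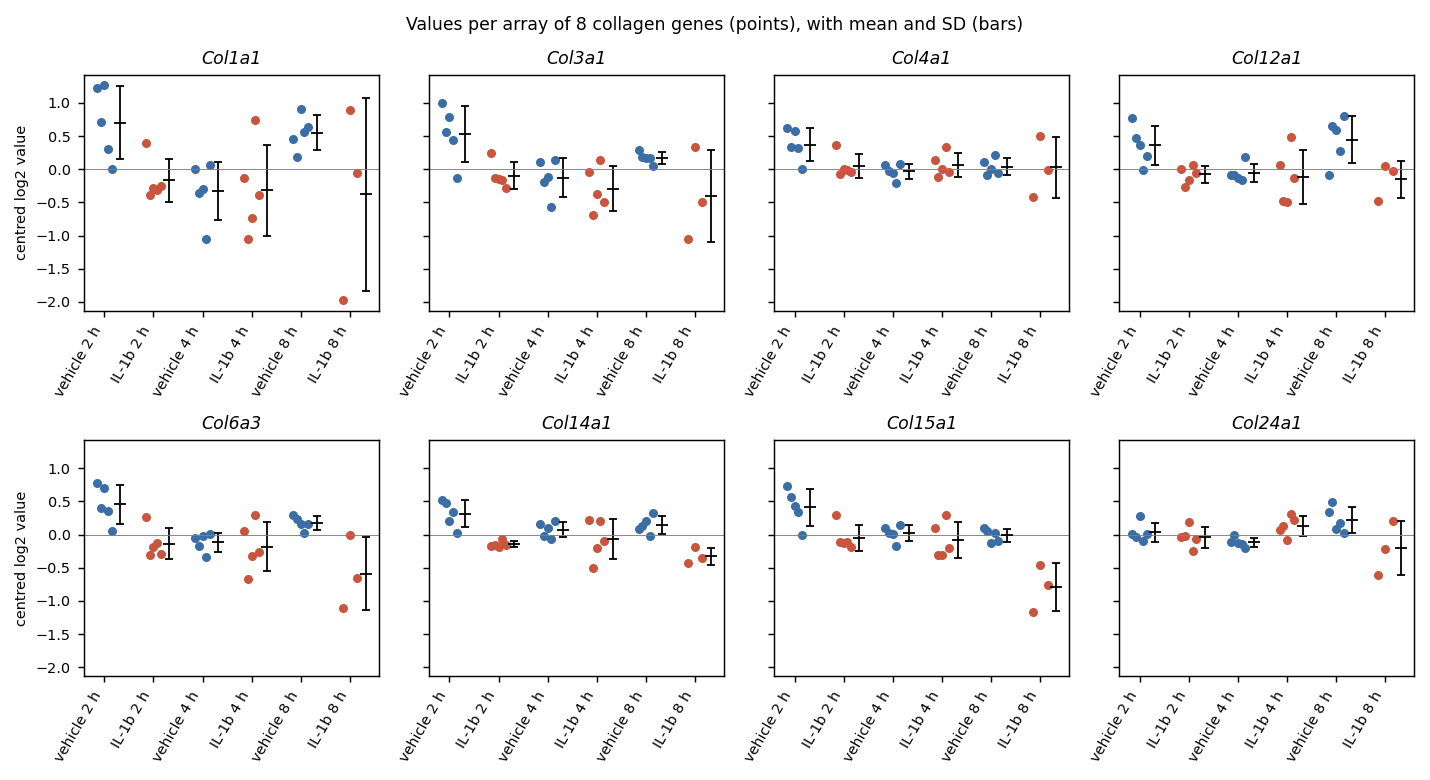
Centred log2 value per array (points, vehicle blue and IL-1b red) of 8 collagen genes in the 6 groups, with the group mean and SD as a bar. Col15a1 after IL-1b at 8 h lies between -1.16 and -0.46, below every vehicle array of that time, while the Col1a1 points of the same arrays run from -1.98 to 0.89.

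The change of the IL-1b effect with time was tested as a difference of differences. From 2 to 4 h it was above 0 for all 39 collagens (median 0.25), the 2 h term again holding the vehicle 2 h arrays, and 0 collagens passed, against 0.0505% of all probe sets. At an unadjusted p under 0.05, 9 were higher, against 4.08%. The smallest p-values were those of Col6a6 (0.29, limma adjusted p = 0.414) and Col4a2 (0.53, adjusted p = 0.43). Fitted values were below 0 for 43.8% of all probe sets. From 4 to 8 h 0 passed, against 0.174%, and 5 were lower at an unadjusted p under 0.05, against 4.07%. The largest of these relative to its error was Col24a1 (-0.67 ± 0.17, adjusted p = 0.0861), followed by Col15a1 (-0.67 ± 0.21, adjusted p = 0.194). Col24a1 passed when IL-1b 8 h replicate 26 was left out. From 2 to 8 h 0 passed, against 0.527%, and 0 had an unadjusted p under 0.05, against 11.1%. In the F-test over all 6 groups that the design text describes, run with limma, 4 collagens passed, against 6.14% of all probe sets: Col15a1 (adjusted p = 0.000179), Col14a1 (0.00445), Col6a3 (0.00601) and Col6a6 (0.00778). None of the 4 differed between IL-1b and vehicle by the 1.75-fold that the design text also asks for, Col15a1 at 8 h coming closest. With a plain F, 2 of the 39 collagens passed (5.13%), against 5.79% of all probe sets. These were Col15a1 (plain F adjusted p = 0.000852) and Col6a6 (0.0097). Col14a1 (0.01) and Col6a3 (0.0165) did not pass by the plain F.

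Collagens differed in how much they varied within a group. The within-group SD was 0.634 for Col1a1 and 0.516 for Col1a2, larger than in 99.9% and 99.7% of all probe sets, and 0.349 for Col3a1 (97.6%). The lowest was 0.116 for Col6a6, larger than in 29.6% of probe sets. With the group means taken out, the members most like Col1a1 over the 28 arrays were Col1a2 (Pearson's r 0.99), Col6a2 (0.946) and Col6a1 (0.923), and the least like it was Col10a1 (-0.0676), a collagen of growth-plate cartilage. Outside the collagens the 5 most alike were Mfap4 (0.922), which encodes a microfibril protein, Sparc (0.908), a collagen-binding matrix protein, Mmp2 (0.888), a gelatinase, Plod1 (0.887), a lysyl hydroxylase of collagen chains, and Loxl2 (0.886), a crosslinking enzyme. These points share RNA extracts, arrays and array spread, so they are given as a description.

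In the RefSeq gene order 5 pairs of collagens are direct neighbours, and each pair moved together over the 28 arrays with the group means removed. The head-to-head pair Col4a1 and Col4a2, whose overlapping promoters are printed above, had r = 0.953 and Spearman's rho 0.874. Without the 2 arrays farthest from the median in Col4a1, r was 0.923. Col4a3 and Col4a4 had r = 0.95 and rho 0.927, and Col4a5 and Col4a6 had r = 0.947 and rho 0.936. Col6a1 and Col6a2 had r = 0.965 and rho 0.947, and Col3a1 and Col5a2 had r = 0.953 and rho 0.84. The r of every pair stayed at or above 0.905 without the 2 arrays farthest from the median of its first gene in gene order. The second gene played no part in that choice. Without the 3 widest arrays r lay between 0.914 and 0.97. The permutation p of r was 1e-05 for each pair (100000 resamples, the smallest they can give, and the same after adjustment over the 5 pairs), and that of rho was at most 2e-05. Over all 741 pairs of collagens the median r was 0.679, with quartiles of 0.478 and 0.89, so high values were not limited to neighbours. The permutation asks only whether a pair is correlated at all. It therefore cannot tell neighbours from other pairs of collagens. These pairs too share RNA extracts, arrays and array spread.

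Genes that build, process, degrade or sense collagen were read from 5 fixed lists with 54 measured genes. At 8 h 5 of them fell after IL-1b and 1 rose, where 2.09% of all probe sets passed. The count of 6 was 0 when only the 8 h groups were fitted, 1 by the design text's selection and 25 with array weights. Itga11, which encodes the alpha chain of a collagen-binding integrin of fibroblasts, was 0.11, -0.14, 0.05, 0.20 and 0.01 on vehicle replicates 1, 9, 13, 17 and 21 and -0.60, -0.55 and -0.59 on IL-1b replicates 14, 22 and 26. It fell by 0.63 on the log2 scale (SE 0.09, limma adjusted p = 4.44e-05), and its 3 IL-1b values lay close together where those of Col1a1 did not. Loxl2 was 0.07, 0.39, 0.34, 0.09 and 0.10 in vehicle and -1.11, -0.23 and -0.58 after IL-1b, a fall of 0.84 (SE 0.16, adjusted p = 0.00201), and did not pass without IL-1b replicate 14 (adjusted p = 0.0439). Colgalt2, a transferase that adds galactose to collagen chains, was 0.01 to 0.11 in vehicle and -0.44, -0.23 and -0.38 after IL-1b (-0.40 ± 0.05, adjusted p = 1.93e-05). Mrc2, an endocytic receptor that takes up collagen for breakdown, differed by -0.50 ± 0.11 (adjusted p = 0.00974), and leaving out any single array of the 8 ended this call (adjusted p from 0.0111 to 0.0991).

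Of the transforming growth factor beta genes, a signalling family that induces collagen synthesis in fibroblasts, the ligand Tgfb2 fell by 0.54 (SE 0.09, adjusted p = 0.000248) and the co-receptor Tgfbr3 rose by 0.54 (SE 0.09, adjusted p = 0.000255). After a further quantile normalization Tgfbr3 was still higher, by 0.33, but did not pass (adjusted p = 0.0548). The other 10 of 12 measured genes of that list did not pass at 8 h. Fitted to the 8 h groups alone, none of the 6 called pathway genes passed (adjusted p from 0.0176 to 0.0865). At 2 h and at 4 h 0 of the 54 genes passed, against 0.0729% and 0.847% of all probe sets. Without IL-1b 2 h replicate 2, 1 passed at 2 h. The 15 measured enzymes and chaperones of collagen synthesis in the endoplasmic reticulum were all below 0 at 2 h (median -0.20), and 9 of them were lower at an unadjusted p under 0.05, against 56.7% and 5.77% of all probe sets. P4ha1, a prolyl hydroxylase subunit, differed by -0.21 ± 0.08 (adjusted p = 0.316). Mmp2 and the metalloprotease inhibitor gene Timp1 differed by -0.38 ± 0.12 and -0.56 at 2 h (adjusted p = 0.257 and 0.253).

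Over time in vehicle, P4ha2, Timp4 and Smad3 were lower at 8 h than at 2 h, by -0.44 ± 0.08, -0.52 ± 0.10 and -0.49 ± 0.10 (limma adjusted p = 0.0037, 0.00359 and 0.00627). Timp4, a metalloprotease inhibitor of muscle and heart, was also lower at 8 h than at 4 h (-0.68 ± 0.10, adjusted p = 0.000785). Its vehicle values were 0.48, 0.38, 0.37, 0.14 and 0.39 at 4 h and -0.27, -0.31, -0.17, -0.27 and -0.63 at 8 h, without overlap. When only the groups compared were fitted, none of these vehicle calls passed (adjusted p = 0.0479 for Timp4 between 8 and 4 h, and 0.116, 0.0577 and 0.0782 for P4ha2, Timp4 and Smad3 between 8 and 2 h). Between 8 and 2 h, the call of P4ha2 was lost without vehicle 2 h replicate 1 or vehicle 8 h replicate 9 or 21, and that of Timp4 without vehicle 2 h replicate 5, 9 or 11 or vehicle 8 h replicate 21. That of Smad3, a transducer of transforming growth factor beta signals, was lost without vehicle 2 h replicate 1, 5 or 7 or vehicle 8 h replicate 9, 13, 17 or 21.

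Fitted values of several marker lists of other cell types of muscle lay mostly to 1 side of 0 as well. Of all these markers, only Kera and Kdr passed the test between IL-1b and vehicle. The part of such markers in the collagen results was not tested. In bulk tissue fewer cells of a type and less RNA per cell cannot be told apart. The 5 measured tendon markers were all below 0 at 2, 4 and 8 h, where 56.7%, 48.7% and 50.1% of all probe sets were, and 0, 0 and 1 of them passed the test, against 0.0729%, 0.847% and 2.09% of all probe sets. Kera (keratocan) was the 1, lower by -1.14 ± 0.20 at 8 h (limma adjusted p = 0.000682). The mean of the tendon list at 2 h ran from 0.138 to 0.602 in vehicle and from -0.248 to 0.1 after IL-1b. At 8 h it ran from 0.0176 to 0.347 in vehicle and from -0.678 to -0.03 after IL-1b, with no overlap at either time. At 4 h it overlapped, from -0.164 to 0.221 in vehicle against -0.563 to 0.211 after IL-1b. The mean of 9 fibroblast markers ran from -0.0848 to 0.268 in vehicle and from -0.156 to -0.0478 after IL-1b at 2 h, and from -0.14 to 0.166 and from -0.214 to -0.123 at 8 h, and 0 of the 9 passed at any of the 3 times. Of the 9, 8 were below 0 at 2 h and 6 at 8 h. At 4 h, when 16 of 39 collagens were below 0, all 9 fibroblast, 5 tendon and 8 endothelial markers were. The 8 endothelial markers were all below 0 at 2 h too, and 6 of them at 8 h, with 1 call over the 3 times, that of the VEGF receptor gene Kdr at 4 h (-0.94 ± 0.12, adjusted p = 3.59e-05). The 6 macrophage markers went in opposite directions at 2 and 8 h, and 0 of them passed. All 6 were below 0 at 2 h (median -0.33), 3 were at 4 h, and 0 were at 8 h (median 0.19), against 56.7%, 48.7% and 50.1% of all probe sets. At 2 h 4 of them were lower at an unadjusted p under 0.05, against 5.77% of all probe sets. The mean of the macrophage list at 8 h was 0.0958 to 0.282 after IL-1b and -0.188 to 0.0634 in vehicle. Of 8 listed muscle fibre markers, 4 had a probe set with 1 symbol, and their medians lay within 0.00447 of 0 at all 3 times. The listed genes Myh1, Myh2, Myh4 and Myh7 had none. On IL-1b 8 h replicate 14, the array lowest in Col1a1, Col6a3 and Col15a1, the mean of 5 adipocyte markers was 1.39, against -0.312 and -0.311 on replicates 22 and 26. The vehicle means of this list ran from -0.272 to 1.15 at 2 h, from -0.134 to 0.752 at 4 h and from -0.288 to 0.332 at 8 h. How this list relates to the collagen values was not tested.

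**Figure D4:**
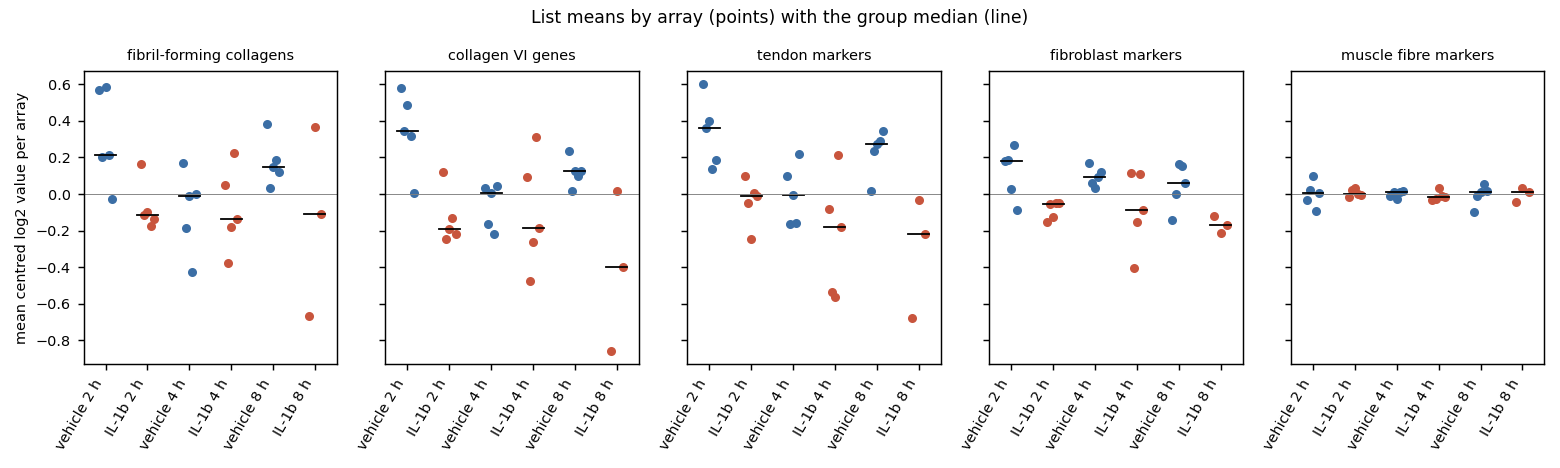
Mean centred log2 value per array (points, vehicle blue and IL-1b red, line at the group median) of the fibril-forming collagens, the collagen VI genes and the tendon, fibroblast and muscle fibre markers. Tendon marker means do not overlap between IL-1b and vehicle at 2 h (at most 0.1 against at least 0.138) or at 8 h, and muscle fibre markers stay near 0.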

How the data were processed

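The authors deposited log2 values made with RMA (robust multi-array average) from whole-transcript Affymetrix arrays, and the build mm9, as the submitters' processing notes list without versions. No source names the log base of the table; RMA works in log2. All probe sets have medians within 1e-06 of 0 over the 28 arrays, so the deposited values are centred and signal over background cannot be read. The number of arrays limits the precision. Total RNA was prepared with a kit for fibrous tissue, per the labels' protocols.

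Of 17831 probe sets, 15620 had 1 gene symbol in the platform annotation, 1370 several and 841 none listed. No probe set was filtered. A probe set that joins Col19a1 to another gene was not used, and Col22a1, Col28a1, Col6a4 and Col6a5 were not analysed here. Groups and replicate numbers come from sample titles. Promoters are RefSeq windows of GRCm38.p6, another build than that of the arrays.

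A linear model of the 6 groups was fitted to all 28 arrays with limma 3.58.1 in R 4.3.3 (22 residual degrees of freedom, 3.95 prior; the residual SD had a median of 0.146). It gave 9 contrasts. On simulated data with 17831 probe sets, 94%, 96% and 89% of 100 probe sets changed by 0.81 on the log2 scale were recovered at 2, 4 and 8 h, with 1, 2 and 3 false calls. The changed probe sets were drawn at random from all, with noise independent between probe sets. Those shares therefore do not hold for collagens with a wide within-group SD, such as Col1a1 (0.634). Alternatives were other spread estimates, array weights, further normalization, single arrays or the 3 widest left out, the design text's F-test with 1.75-fold, a threshold of 0.05 and replicate blocks. The plan was to name a fixed panel of collagens, members past the threshold and the 3 largest changes in each direction per contrast. Called pathway genes with a fixed panel, and the 5 genes most like Col1a1, were to be named too. It was not followed in full. No rise is named for IL-1b at 8 h (highest 0.17) or for vehicle at 8 h minus 2 h (highest 0.19). No gene is named for the 2 to 8 h change of effect. For the other changes of effect, genes were picked by p-value or by size relative to error. Elsewhere not all 3 are named. Kera, Kdr, Col11a1, Col6a6, Col8a1 and Col24a1 are also named where a small count is given, after their values were seen. The panel genes Serpinh1 and Lox have no probe set with 1 symbol. The members, lists and tests were chosen with earlier results of these data known. Several replicate numbers are shared between vehicle groups. Number 4 is also shared between IL-1b at 2 and 4 h, and number 22 between IL-1b at 4 and 8 h. Number 13 is shared between IL-1b at 4 h and vehicle at 8 h. Only pairs of vehicle arrays were compared. The deviations of 7 same-numbered vehicle pairs correlated from -0.434 to 0.678. The 3 pairs above 0.1 were all between arrays of replicate 1. Of 68 pairs with other numbers, 20 were above 0.1 (range -0.681 to 0.576). The numbers were not taken to pair samples.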

Additional observations from a re-analysis of the deposited data

Results flagged for a closer look

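Of 120 groups of 5 arrays tested for a single array far from the others (the gap to the nearest array over the range above 0.71), 14 stood out; chance gives about 5%. IL-1b 2 h replicate 2 accounted for 9. Its centred log2 value was 0.395 for Col1a1 (others -0.39 to -0.251), 0.293 for Col1a2 (-0.292 to -0.238) and 0.153 for Col5a1 (-0.155 to -0.0835). It was 0.156 for Col5a2 (-0.106 to -0.0498), 0.37 for Col4a1 (-0.0695 to 0.00439) and 0.298 for Col4a2 (-0.216 to -0.123). It was 0.15 for Col6a1 (-0.277 to -0.168), 0.0769 for Col6a2 (-0.305 to -0.227) and 0.303 for Col15a1 (-0.191 to -0.109). In each of these genes this array was the highest of its group. These genes vary together between arrays, so the 9 are not separate events.

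Col14a1 was highest on IL-1b 2 h replicate 10 (-0.0704, others -0.18 to -0.154), and Col12a1 on vehicle 4 h replicate 17 (0.18, others -0.154 to -0.0824). Among pathway genes, Colgalt2 was lowest on vehicle 4 h replicate 1 (-0.0511, others 0.0339 to 0.0647). On vehicle 2 h replicate 1, P4ha2 was highest (0.346, others 0.087 to 0.16) and Tgfbr3 lowest (-0.379, others -0.201 to -0.165).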

How the results depend on the processing

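The count of collagens past the threshold was 0 under every alternative run for IL-1b against vehicle at 2 and 4 h and for the 3 vehicle contrasts. At 8 h the count of 1 became 0 when only the groups compared were fitted (37 of all probe sets passed), 0 after a further quantile normalization (130) and 13 with array weights (2630), whose estimation stopped before its tolerance. It became 2 without the 3 arrays of widest spread (310) and 2 when IL-1b 2 h replicate 2 was left out as well (336), an alternative chosen after seeing the data. At an adjusted p of 0.05 it was 3 (718). The design text's selection of an F-test and 1.75-fold gave 0, with limma's F (86) and with a plain F (81). Leaving out single arrays gave 0 to 2: 0 without IL-1b 8 h replicate 14, 2 without replicate 22 (Col6a3 and Col15a1), and without replicate 26 the 1 call was Col24a1. The median collagen difference at 8 h ran from -0.2168 to 0.05241 over single arrays left out. For the change of the effect from 4 to 8 h the count ran from 0 to 1, the 1 being Col24a1 without IL-1b 8 h replicate 26. With the replicate block, random over all arrays (consensus correlation 0.135), 1 collagen passed at 8 h and 0 elsewhere, and with a fixed replicate block over the vehicle arrays 0 passed. The fixed block ended the vehicle calls of P4ha2, Timp4 and Smad3 (adjusted p = 0.292 to 0.409). Of the 54 pathway genes, the count of 0 at 2 h became 1 after a further quantile normalization, 1 without IL-1b 2 h replicate 2 (alone or with the 3 widest arrays), 2 with array weights and 2 at an adjusted p of 0.05. The count of 0 at 4 h became 3 with array weights and 1 at an adjusted p of 0.05. The count of 6 at 8 h became 0 with only the groups compared, 1 by the design text's selection, 11 at an adjusted p of 0.05 and 25 with array weights. For vehicle at 8 h minus 2 h the 3 ranged from 0 to 5, and for 8 h minus 4 h the 1 ranged from 0 to 2. No difference reversed its sign among called values; the cause of the other changes was not tested. With 3 IL-1b arrays, 8 h is the least precise time.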
